A study of Rattus norvegicus with 4 samples.

Results

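Potassium channels are assembled from pore-forming alpha subunits, which carry the current, and from accessory subunits, which tune it. Kcnh2 encodes ERG1, a voltage-gated alpha subunit that carries the rapid delayed rectifier current of the heart and helps to repolarize the cardiac action potential. Inward rectifier and background-leak (K2P) channels set the resting membrane potential, and silent alpha subunits carry no current alone but modify Kv2 channels. The genes described here are all those in the deposited tables whose symbol starts with Kcn. These are 94 of 32753 genes, with 93 distinct symbols because Kcnn2 has a pair of entries. Kcnq1ot1, the antisense RNA of Kcnq1, was to be left out but no entry carries that symbol.

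The samples were embryoid bodies, aggregates in which pluripotent cells begin to differentiate, made from Kcnh2-/- and wild-type (WT) rat embryonic stem cells of the strain labelled DASD and collected at differentiation day 4. There were 2 libraries for Kcnh2-/- and 2 for WT. Both genotypes passed through hanging drops for 2 days with CHIR9902 at 0.75 µM, PD0325901 at 0.1 µM and Y27632 at 10 µM, then 24 hours on laminin with CHIR9902 and PD0325901, and 1 day in DM medium. The labels give neither the altered part of Kcnh2 nor the number of lines or clones, and do not say whether replicates were separate cultures, so p-values measure only the spread between these 4 libraries.

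Expression is given in RPKM, reads scaled by gene length and library size as the authors computed them, which allows levels to be compared between genes. Absolute read depth is unknown. The RPKM values of all genes summed to 1.09e+08 and 8.93e+06 in Kcnh2-/- replicates 1 and 2. In the matching WT libraries they summed to 7.95e+07 and 1.17e+07. Genes matched as coding made up only 0.538% and 9.69% of these sums in Kcnh2-/- and 1.28% and 6.08% in WT. The sums thus split by replicate number, mostly through entries not matched as coding. Differences within each number are given beside the pooled ones. The pluripotency gene Pou5f1 was at 1043 and 1679 RPKM in Kcnh2-/- and at 273 and 1203 RPKM in WT. The Y-linked gene Eif2s3y was at 0.0574 and 0.140 RPKM in Kcnh2-/- and at 153 and 135 RPKM in WT, and the median difference of 358 X-linked coding genes was 0.60 on the log2(RPKM + 1) scale. The groups thus differed in their sex chromosome genes as well as in genotype, which cannot be told apart from the loss of Kcnh2 in any comparison below.

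Kcnh2 RNA was lower in both Kcnh2-/- libraries than in either WT library, and it was scarce in WT as well. It was at 0.108 and 0.504 RPKM in Kcnh2-/- replicates 1 and 2, against 2.61 and 1.45 RPKM in WT replicates 1 and 2. The groups did not overlap, with means of 0.306 ± 0.280 RPKM in Kcnh2-/- and 2.03 ± 0.821 RPKM in WT (SD, n = 2 each). On the log2(RPKM + 1) scale the difference was -1.20 ± 0.43 (SE), with an unadjusted limma p of 0.0416 and a Benjamini-Hochberg adjusted p of 0.980 over 12355 genes. It was -1.70 within replicate number 1 and -0.70 within number 2. Kcnh2 therefore missed the threshold of 0.05, and it entered the test only through its WT libraries. In bulk RNA, fewer cells that express a gene and less RNA per cell cannot be told apart. Kcnh2 was above 2.82% of the tested coding genes by its mean over the 4 libraries. That mean includes the Kcnh2-/- libraries and lies below the WT mean of 2.03 RPKM, so the rank does not describe WT alone.

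The other KCNH genes encode the EAG, ERG and ELK relatives of ERG1, and none of the 7 reached 1 RPKM in more than 1 library. Kcnh8, an ELK channel gene, was the highest of them. It stood at 0.968 and 0.365 RPKM in Kcnh2-/- and at 1.38 and 0.570 RPKM in WT, with overlapping groups and lower levels in both replicate 2 libraries. Kcnh4, another ELK gene, was at 0.357 and 0.527 RPKM in Kcnh2-/- and at 0.0977 and 0.284 RPKM in WT. Its groups did not overlap, but at these levels it was not tested. The EAG gene Kcnh1 was at 0.0511 and 0.189 RPKM in Kcnh2-/-, against 0.396 and 0.176 RPKM in WT. The ERG relatives Kcnh6 and Kcnh7, the EAG gene Kcnh5 and the ELK gene Kcnh3 all lay between 0.0129 RPKM (Kcnh7 in WT replicate 2) and 0.138 RPKM (Kcnh6 in Kcnh2-/- replicate 1). Kcnh3, Kcnh7 and Kcnh8 share a locus entry with other genes, so their reads may have been divided with those.

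Kcnh2 made up 5.61% and 28.1% of the summed RPKM of the 8 KCNH genes in Kcnh2-/-, against 53.6% and 53.3% in WT. The other 7 summed to 1.81 and 1.29 RPKM in Kcnh2-/- and to 2.26 and 1.27 RPKM in WT. The sum of the relatives overlapped between genotypes and was lower in both replicate 2 libraries.

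**Figure D1:**
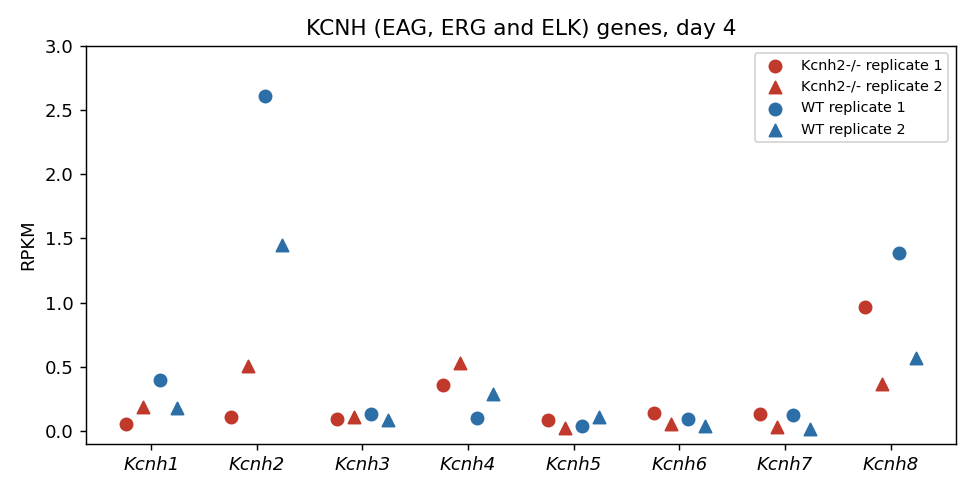
RPKM of the 8 KCNH genes in each library (red, Kcnh2-/-; blue, WT; circles, replicate 1; triangles, replicate 2). Kcnh2 lies at 0.108 and 0.504 RPKM in Kcnh2-/-, below both WT libraries at 2.61 and 1.45 RPKM, while every other KCNH gene is at or under 1.38 RPKM.

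The genes beside Kcnh2 on chromosome 4 differed less between genotypes than Kcnh2 itself in the pooled comparison. Kcnh2 lies at 7355573 to 7387253 in rn6 coordinates as the files give them. Of the 5 coding genes on each side, 7 were tested and none was called. Abcb8, which encodes a mitochondrial ABC transporter 43695 bp before Kcnh2, was at 15.5 and 19.8 RPKM in Kcnh2-/- and at 15.0 and 14.2 RPKM in WT. Its difference was 0.25 ± 0.28 (SE, limma adjusted p = 0.980). Cdk5, a neuronal kinase gene, was at 16.9 and 15.6 RPKM in Kcnh2-/- and at 16.8 and 16.0 RPKM in WT, so all 4 libraries lay close together. On the other side Nupl2, a nucleoporin gene 125072 bp away, was at 8.81 and 6.92 RPKM in Kcnh2-/- and at 8.16 and 9.49 RPKM in WT. Fam126a had groups that did not overlap, with 8.96 and 11.7 RPKM in Kcnh2-/- and 15.0 and 11.8 RPKM in WT (difference -0.35 ± 0.31, adjusted p = 0.980). Across the 7, differences ran from -0.35 to 0.25. The nearest genes, Nos3 (endothelial nitric oxide synthase) and Atg9b, share a locus entry with each other and stayed under 1 RPKM in every library. Nos3 was at 0.292 and 0.454 RPKM in Kcnh2-/- and at 0.649 and 0.222 RPKM in WT.

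**Figure D2:**
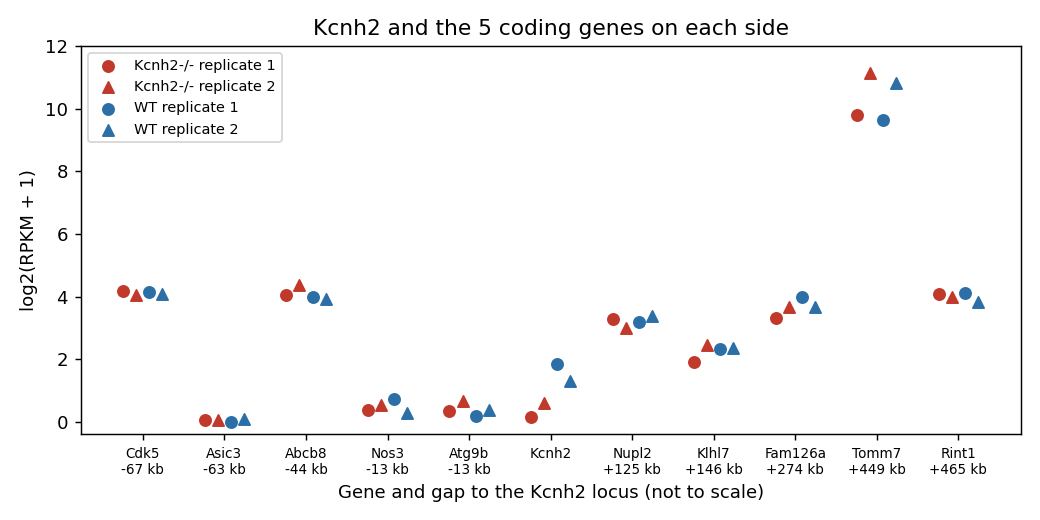
log2(RPKM + 1) of Kcnh2 and the 5 coding genes on each side, in order along chromosome 4, with the gap to the Kcnh2 locus under each name. Only Kcnh2 and Fam126a lie lower in both Kcnh2-/- libraries than in both WT libraries, and Abcb8 is the gene that lies higher.

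Most potassium channel genes had little or no RNA at day 4. Only 6 of the 94 were at 1 RPKM or more in all 4 libraries: Kcnk1, Kcnk5 and Kcnk6 (K2P channels), Kcnj13 and Kcnj14 (inward rectifiers) and Kcnab3 (an accessory subunit). With WT replicate 1 left out the count was 11. Another 6 reached 1 RPKM in 3 libraries, 8 in 2 libraries and 7 in 1 library. The remaining 67 never reached it, 8 of them listed at 0 throughout. Those 8 are Kcna4, Kcna10, Kcnip2, Kcnj1, Kcnk18, Kcnq3, Kcnv1 and the second Kcnn2 entry, and a value of 0 in such files can be a failed estimate. Only 3 members had a mean of 5 RPKM or more, and the highest, Kcnk1, was above 42.8% of the tested coding genes. In each library 11 to 21 members were at 1 RPKM or more, 14 and 19 in Kcnh2-/- and 11 and 21 in WT.

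By kind of subunit, K2P genes took the largest share of the summed RPKM in each library, with 38.1% and 32.6% in Kcnh2-/- and 43.9% and 32.1% in WT. Inward rectifiers took 13.6% and 13.2% in Kcnh2-/- and 10.7% and 21.1% in WT. The 29 voltage-gated alpha subunits, Kcnh2 among them, took 14.2% and 13.6% in Kcnh2-/- and 11.1% and 13.7% in WT. None of the 8 Kv1 genes and none of the 4 Slo-type genes reached 1 RPKM in any library. All 94 genes together summed to 59.1 and 65.2 RPKM in Kcnh2-/- and to 80.7 and 74.7 RPKM in WT. Without Kcnk1 and Kcnmb4, a pair chosen after the values were seen, the sums were 46.1 and 60.0 RPKM in Kcnh2-/- and 41.4 and 69.0 RPKM in WT. The total was thus lower in both Kcnh2-/- libraries only with those genes included.

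**Figure D3:**
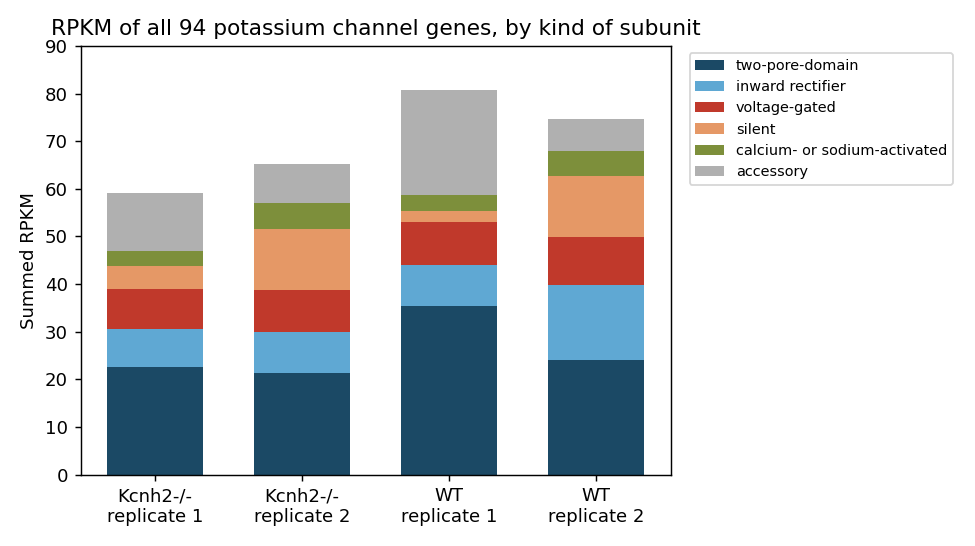
Summed RPKM of the 94 potassium channel genes in each library, stacked by kind of subunit. K2P genes form the largest block, at 38.1% and 32.6% in Kcnh2-/- and 43.9% and 32.1% in WT, and the block of silent subunits is larger in both replicate 2 libraries.

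No potassium channel gene was called between genotypes. Of the 20 members that passed the filter (1 RPKM or more in at least 2 libraries), limma called 0 after adjustment, against 0.113% of all 12355 genes tested (0.0324% higher and 0.0809% lower). At an unadjusted p under 0.05 there was 1, the lower Kcnh2, against 3.38% of all genes in either direction and 1.31% lower. Kcnh2 and Kcnmb4 were lower by more than 1 on the log2 scale, as were 3.09% of all genes tested. Groups did not overlap for 2 members that were higher in Kcnh2-/- (Kcnab3 and Kcnn4), where 16.7% of all tested genes were higher in this way. They did not overlap for 2 that were lower (Kcnh2 and Kcnk6), where 15.3% of all tested genes were. These shares, 10.0% each, rest on 2 of 20 genes, too few to be set apart from the background. The median difference of the 20 was -0.052, against 0.0052 for all genes tested, and it was 0.18 within replicate number 1 and -0.13 within number 2. It moved to -0.40 without WT replicate 1 and to 0.43 without WT replicate 2. With 2 libraries a side, the smallest p that exact permutation allows for a single gene is 0.333.

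The tested members whose groups did not overlap were Kcnn4, Kcnab3 and Kcnk6, besides Kcnh2. Kcnn4, an intermediate-conductance calcium-activated channel gene, was at 1.16 and 2.31 RPKM in Kcnh2-/- and at 0.170 and 1.00 RPKM in WT. Its difference was 0.80 ± 0.48 (SE, limma adjusted p = 0.980), and 0.88 and 0.73 within numbers 1 and 2. Kcnab3, a Kv beta subunit gene, was at 6.07 and 2.61 RPKM in Kcnh2-/- and at 1.89 and 2.25 RPKM in WT. Most of its difference of 0.72 ± 0.46 (adjusted p = 0.980) came from number 1, with 1.29 there and 0.15 in number 2. Kcnk6, a K2P channel gene of the TWIK group, was at 1.12 and 1.62 RPKM in Kcnh2-/- and at 1.99 and 2.46 RPKM in WT (-0.45 ± 0.36, adjusted p = 0.980). Kcns3, a silent subunit gene, was at 1.41 and 3.87 RPKM in Kcnh2-/- and at 0.442 and 1.92 RPKM in WT. Its groups overlapped, yet it was higher in Kcnh2-/- by 0.74 within both replicate numbers. None of these passed the threshold.

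The subunits that pair with ERG1 or with its cardiac counterpart KvLQT1 were scarce. Kcnq1, which encodes KvLQT1, the alpha subunit of the slow delayed rectifier, was at 0.499 and 0.224 RPKM in Kcnh2-/- and at 0.0732 and 0.224 RPKM in WT. Kcne1, which encodes the MinK beta subunit of that current, was at 0.573 and 1.26 RPKM in Kcnh2-/-, against 0 and 0.139 RPKM in WT. Its groups did not overlap, and it was the only member besides Kcnh2 with an unadjusted limma p under 0.05 when every gene above 0 was fitted (adjusted p of 0.948 or more). Kcne4, an inhibitory beta subunit gene, was at 0.206 and 1.71 RPKM in Kcnh2-/- and at 0.197 and 0.122 RPKM in WT, so 1 library stood apart. Kcne2, proposed as a partner of ERG1, was at 0.469 and 0.0286 RPKM in Kcnh2-/- and at 0.196 and 0.146 RPKM in WT. Kcne3 was at 0.0927 and 0.0943 RPKM in Kcnh2-/- and at 0.133 and 0.240 RPKM in WT. The X-linked Kcne5 was listed above 0 in Kcnh2-/- replicate 1 alone, at 0.106 RPKM.

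Of the 66 members that were above 0 but not tested, 8 stood higher and 9 lower in both Kcnh2-/- libraries than in either WT library. The same held for 9.95% and 12.9% of all genes above 0 but not tested, against 12.1% and 13.6% of these members. For Kcnq1, the libraries nearest to each other had the same value to 3 digits. Apart from Kcne1 and Kcne4, these 17 were under 1 RPKM in every library.

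**Figure D4:**
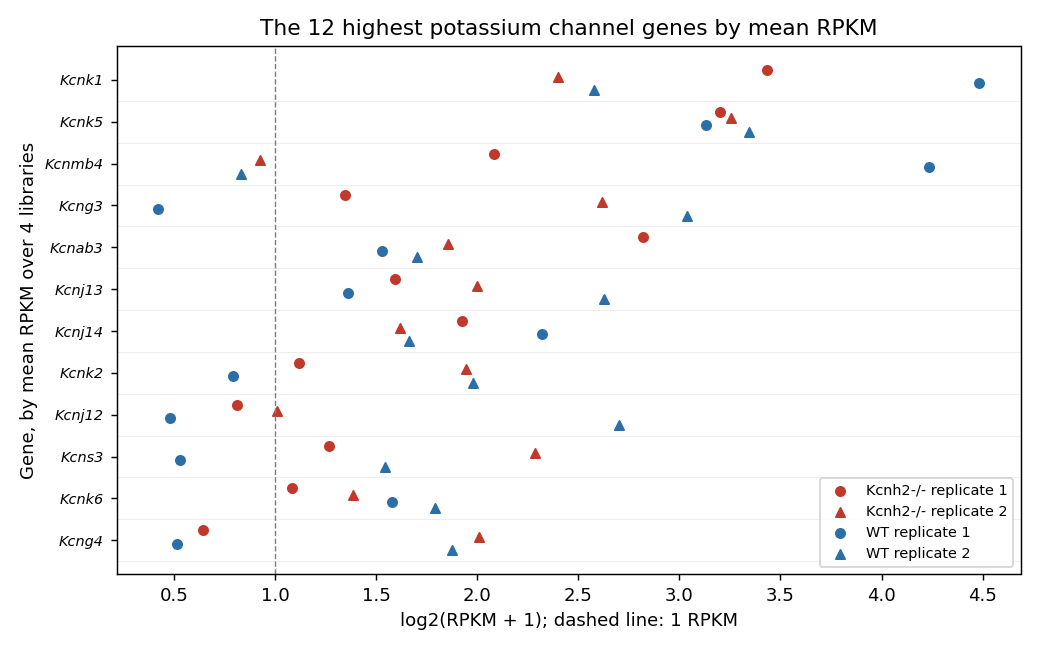
The 12 potassium channel genes with the highest mean RPKM, ordered from the top, with log2(RPKM + 1) in each library (red, Kcnh2-/-; blue, WT; circles, replicate 1; triangles, replicate 2; dashed line, 1 RPKM). Kcnk5 is the steadiest of the highly ranked genes. Circles and triangles separate for every gene shown except Kcnab3 and Kcnk6, with Kcnmb4, Kcng3 and Kcng4 among those that separate.

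The most abundant channels differed in how much they varied between libraries. Kcnk5, an alkali-activated K2P channel, was at 8.19 and 8.54 RPKM in Kcnh2-/- and at 7.77 and 9.15 RPKM in WT. The 4 libraries lay close together, and the difference was -0.011 ± 0.28 (SE, limma adjusted p = 0.998; 0.0950 without WT replicate 2 and 0.0160 without Kcnh2-/- replicate 1). Kcnk1, a weakly rectifying K2P channel of the TWIK group, was at 9.80 and 4.27 RPKM in Kcnh2-/- and at 21.4 and 4.96 RPKM in WT. It was high in both replicate 1 libraries, most of all in WT. Its difference of -0.61 ± 0.77 turned to 0.34 without WT replicate 1. Kcnmb4, a beta subunit of the large-conductance calcium-activated BK channel, was at 3.24 and 0.897 RPKM in Kcnh2-/- and at 17.8 and 0.778 RPKM in WT. The value in WT replicate 1 stood apart from the other 3, and the difference of -1.03 ± 1.23 turned to 0.67 without it. The BK alpha subunit gene Kcnma1, which Kcnmb4 needs to form a channel, was at 0.0258 and 0.0473 RPKM in Kcnh2-/- and at 0.409 and 0 RPKM in WT. Kcnmb4 shares its locus entry with the contig-named AC136025.1.

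The 250 bases before the annotated start are printed for the 4 highest members by mean RPKM in the RefSeq promoter table (build GRCr8). Kcnk5 was steady, though slightly higher in both replicate 2 libraries. Kcnmb4 and Kcng3 followed the replicate number with larger differences, and Kcnab3 was higher in both Kcnh2-/- libraries. Capitals mark the GC box GGGCGG, or its reverse complement CCGCCC, the letters bound by Sp1-type factors. Kcnk5 (chr15:4171375-4171624, plus strand), Kcnmb4 (chr7:54005102-54005351, minus strand), Kcng3 (chr6:16803592-16803841, plus strand) and Kcnab3 (chr10:54546388-54546637, plus strand) are each written 5′ to 3′ on the strand of the gene.
Kcnk5: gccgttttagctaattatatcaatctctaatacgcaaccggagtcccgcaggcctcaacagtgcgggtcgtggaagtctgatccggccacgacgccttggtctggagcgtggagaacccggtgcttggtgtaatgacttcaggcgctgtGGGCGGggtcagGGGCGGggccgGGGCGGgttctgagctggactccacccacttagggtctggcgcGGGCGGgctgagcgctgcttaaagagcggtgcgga
Kcnmb4: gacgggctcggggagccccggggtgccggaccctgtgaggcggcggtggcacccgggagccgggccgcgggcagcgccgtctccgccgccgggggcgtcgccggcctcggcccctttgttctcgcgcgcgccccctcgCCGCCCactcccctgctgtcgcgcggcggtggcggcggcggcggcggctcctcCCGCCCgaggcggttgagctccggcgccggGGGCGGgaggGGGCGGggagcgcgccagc
Kcng3: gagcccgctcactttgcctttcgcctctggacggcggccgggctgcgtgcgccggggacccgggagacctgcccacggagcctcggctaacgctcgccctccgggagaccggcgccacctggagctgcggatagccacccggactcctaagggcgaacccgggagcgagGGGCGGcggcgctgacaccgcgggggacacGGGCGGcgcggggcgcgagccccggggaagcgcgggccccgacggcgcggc
Kcnab3: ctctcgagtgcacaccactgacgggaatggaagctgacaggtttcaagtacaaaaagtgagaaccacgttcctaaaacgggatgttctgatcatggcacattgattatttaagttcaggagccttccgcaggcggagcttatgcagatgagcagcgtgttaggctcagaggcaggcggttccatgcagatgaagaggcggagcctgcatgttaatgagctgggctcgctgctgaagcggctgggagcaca

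Kcnk5 and Kcnmb4 held 4 such matches each and Kcng3 held 2, while these letters did not occur in the Kcnab3 window. Of the 27457 promoters in the table, 32.4% held at least 1 on either strand. The GC content was 62.8% for Kcnk5, 84.4% for Kcnmb4, 78.4% for Kcng3 and 52.8% for Kcnab3, against a median of 52% over the table. The matches are descriptions of these windows and say nothing of binding. The table holds 62 of the 93 member symbols. Kcnh2 and Kcnk1 are not among them.

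Potassium channel genes varied more with replicate number than with genotype. Of the 20 tested members, 11 (55.0%) were higher in both replicate 2 libraries than in either replicate 1 library, against 29.5% of all genes tested. Kcnk1, Kcnmb4 and Kcnj14 (15.0%) were lower in this way, against 19.8% of all genes. The difference between replicate numbers was larger than that between genotypes for 14 of the 20 (70.0%), against 58.8% of all genes. Kcng3, a silent subunit gene, was at 1.54 and 5.13 RPKM in Kcnh2-/- and at 0.337 and 7.22 RPKM in WT. Kcng4, of the same group, was at 0.564 and 3.03 RPKM in Kcnh2-/- and at 0.430 and 2.66 RPKM in WT. Both genes were several times higher in the replicate 2 library of each genotype, and genotypes overlapped.

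Among inward rectifiers, Kcnj12 was high in 1 library, at 0.756 and 1.01 RPKM in Kcnh2-/- and at 0.396 and 5.50 RPKM in WT. Its difference of -0.68 ± 0.82 (SE, limma adjusted p = 0.980) turned to 0.43 without WT replicate 2. Kcnj13 was at 2.02 and 2.998 RPKM in Kcnh2-/- and at 1.57 and 5.17 RPKM in WT, and shares its locus entry with Gigyf2. Kcnj14 was at 2.80 and 2.07 RPKM in Kcnh2-/- and at 4.00 and 2.16 RPKM in WT. The mechanosensitive K2P gene Kcnk2 was at 1.17 and 2.85 RPKM in Kcnh2-/- and at 0.731 and 2.94 RPKM in WT. Genotypes overlapped for each of these, and the replicate number separated the libraries of all 4 genes. The X-linked Kcnd1, a Kv4 alpha subunit gene, was at 1.19 and 1.60 RPKM in Kcnh2-/- and at 0.630 and 2.31 RPKM in WT.

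Genotypes overlapped for 3 further tested members given here, Kcnn3, Kcnk7 and Kcnn1. Kcnn3, a small-conductance calcium-activated channel gene, was at 0.318 and 1.99 RPKM in Kcnh2-/- and at 0.540 and 1.91 RPKM in WT. Kcnk7, a K2P gene, was at 0.491 and 1.45 RPKM in Kcnh2-/- and at 0.563 and 3.95 RPKM in WT. Kcnn3 and Kcnk7 lay under 1 RPKM in both replicate 1 libraries and above it in both replicate 2 libraries. Kcnn1, of the small-conductance group, was at 1.08 and 0.632 RPKM in Kcnh2-/- and at 1.07 and 1.36 RPKM in WT, and did not follow the number.

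Several members reached 1 RPKM in a single library and were not tested. Kcnj4, an inward rectifier gene, was at 0.145 and 1.32 RPKM in Kcnh2-/- and at 0.0519 and 0.795 RPKM in WT. The K2P gene Kcnk16 was at 0.484 and 0.0804 RPKM in Kcnh2-/- and at 1.71 and 0.0207 RPKM in WT. Kcnj4 was higher in the replicate 2 libraries and Kcnk16 in the replicate 1 libraries, in both genotypes.

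**Figure D5:**
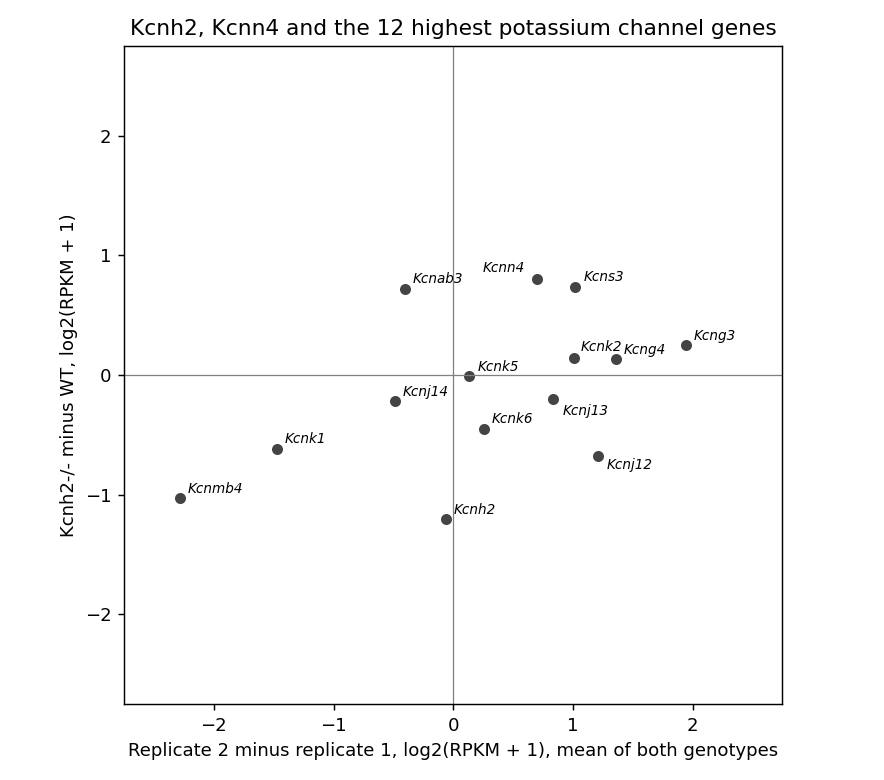
Difference between genotypes (vertical, Kcnh2-/- minus WT) against the difference between replicate numbers (horizontal, replicate 2 minus 1, mean of both genotypes) for Kcnh2, Kcnn4 and the 12 potassium channel genes with the highest mean RPKM, both in log2(RPKM + 1). Kcnh2 lies lowest on the vertical axis at -1.20 and near 0 on the horizontal axis. Its horizontal position averages opposite differences, 0.44 in Kcnh2-/- and -0.56 in WT. Kcng3, Kcng4, Kcnk1 and Kcnmb4 spread along the horizontal axis.

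Summed cell type markers separated the replicate numbers in every list but that of the primitive streak. The summed RPKM of the pluripotency markers (5 of 6 found, none at 0) was 1077 and 1830 in Kcnh2-/- and 314 and 1351 in WT. That of the cardiomyocyte markers (8 of 8 found) was 75.6 and 8.77 in Kcnh2-/- and 678 and 43.6 in WT, and came from Actc1, Tnnc1 and Tnnt2, while Nkx2-5 stayed at or under 0.111 RPKM. Trophoblast and simple epithelial markers (5 of 5) summed to 785 and 309 in Kcnh2-/- and to 1885 and 408 in WT. Of these, Krt8 separated the numbers, at 531 and 53.1 RPKM in Kcnh2-/- and 1567 and 175 RPKM in WT, and Krt18 did not, at 253 and 255 RPKM in Kcnh2-/- and 314 and 230 RPKM in WT. Endoderm markers (6 of 6) summed to 20.2 and 2.01 in Kcnh2-/- and to 101 and 14.8 in WT. Primitive streak markers (5 of 5) summed to 24.8 and 14.2 in Kcnh2-/- and to 33.1 and 32.3 in WT. Within that list Fgf8 was at 7.87 and 3.94 RPKM in Kcnh2-/- and at 9.06 and 19.2 RPKM in WT, whereas Eomes was at 11.5 and 9.79 RPKM in Kcnh2-/- and at 8.70 and 9.05 RPKM in WT. Neural markers (6 of 7 found) summed to 24.3 and 19.3 in Kcnh2-/- and to 52.9 and 14.2 in WT. Most of that sum was Tubb3, at 17.9 and 16.2 RPKM in Kcnh2-/- and 44.6 and 11.8 RPKM in WT. Tubb3 and Nes were higher in both replicate 1 libraries. Map2 did not follow the number, at 1.76 and 1.41 RPKM in Kcnh2-/- and 0.293 and 0.566 RPKM in WT. Kcnk1, Kcnmb4 and the cardiomyocyte, trophoblast, endoderm, neural and primitive streak sums were all highest in WT replicate 1. The pluripotency sum was lowest there. Whether the mix of cells had a part in the channel values was not tested.

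Genes that act with potassium channels gave 0 calls in each of 4 lists. Of 21 entries for ERG folding, trafficking and turnover, 17 were tested, with 4 higher and 4 lower in both Kcnh2-/- libraries than in either WT library, against 16.7% and 15.3% of all genes tested, and a median difference of 0.11. Hsp90aa1, which encodes a chaperone that ERG1 needs to mature, was at 363 and 374 RPKM in Kcnh2-/- and at 203 and 245 RPKM in WT (0.72 ± 0.28 SE, limma adjusted p = 0.980). The paralogous Hsp90ab1 was at 1507 and 1263 RPKM in Kcnh2-/- and at 1178 and 1192 RPKM in WT. The ubiquitin ligase gene Nedd4l, which acts on ERG1 turnover, was at 5.14 and 5.87 RPKM in Kcnh2-/- and at 5.56 and 4.66 RPKM in WT.

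Potassium pumps and cotransporters summed to 287 and 282 RPKM in Kcnh2-/- and to 368 and 260 RPKM in WT, above the sum of the channels. Of these 17 genes, 7 were tested, with a median difference of -0.067.

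Hcn2, a hyperpolarization-activated pacemaker channel gene, was the 1 tested of 11 HCN and CNG entries. It was at 3.36 and 8.06 RPKM in Kcnh2-/- and at 1.11 and 6.24 RPKM in WT, higher in both replicate 2 libraries, with a genotype difference of 0.69 ± 0.75 (SE, adjusted p = 0.980). Of 11 partner genes with other symbols, 2 were tested. The scaffold gene Pdzk1 was at 6.19 and 3.14 RPKM in Kcnh2-/- and at 1.65 and 2.05 RPKM in WT (0.94 ± 0.42, limma adjusted p = 0.980), and Alg10 did not separate the groups. The sulfonylurea receptor genes Abcc8 and Abcc9, which complete ATP-sensitive channels, stayed under 1 RPKM throughout.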

How the data were processed

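RNA from 4 libraries (2 Kcnh2-/-, 2 WT) was depleted of ribosomal RNA and sequenced from strand-marking libraries as paired 100 bp reads, per the labels' protocols. TopHat2 2.0.13, Cufflinks 2.2.1 and the rn6 genome are named, with no order of steps, in the submitters' processing notes. No annotation is named. Each library has its own table of gene-level RPKM, deposited as the authors made it. Absolute depth is unknown, so no counting intervals are given.

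Members were picked by symbol. The members and lists were chosen with earlier results of these data known. Kcnh2-/- and WT were compared with limma 3.58.1 in R 4.3.3 (mean-variance trend, two-sided, no replicate term) on log2(RPKM + 1) over 12355 genes with a value of 1 RPKM or more in any 2 libraries. P-values were adjusted by Benjamini-Hochberg over all of them, and the threshold was 0.05. This scale understates changes of low genes. The fit was also run on simulated data, with large changes planted in genes above the level of most members. These data had no split by replicate number, so that run does not cover genes near 1 RPKM. Coding genes were matched by symbol, synonym or identifier in a RefSeq table (GRCr8), which matched 19341 of 32753 genes. Of the 94 members, 16 share a locus entry with another gene.

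Named by rule were Kcnh2, the other KCNH genes, Kcnq1 and Kcne1 to Kcne5, the 12 highest members, members at an unadjusted p under 0.05, up to 5 tested members in each direction with groups that did not overlap, and 5 coding genes on each side of Kcnh2. Other genes were named after their values were seen. Alternatives covered the pseudocount, filter, scaling, variance model, threshold, gene set, a replicate term and each library left out. Plots were drawn with matplotlib 3.10.9, and tables were handled in pandas 2.3.3 under Python 3.11.15. Some genes are not reported here.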

Additional observations from a re-analysis of the deposited data

How the results depend on the processing

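With 2 libraries per group and members near 1 RPKM, small differences were not detectable, and large ones could be missed. Kcnh2 itself, at means of 0.306 RPKM in Kcnh2-/- and 2.03 RPKM in WT, had a limma adjusted p of 0.980. The number of potassium channel genes called stayed at 0 in all 14 alternatives, and the smallest adjusted p of any member was 0.224 (Kcnh2, coding genes with a replicate block). The Kcnh2 difference was negative and uncalled throughout, from -2.53 (pseudocount 0.1) to -1.15 (quantile normalization) and from -1.48 to -0.92 with 1 library left out, and a filter of 5 RPKM removed the gene. All genes called numbered 14, and moved to 1 with no filter, 3 with no variance trend, 3 over coding genes, 28 with a replicate block and 81 (57 higher, 24 lower) over coding genes with that block. The replicate numbers are not given as pairs by the labels. Deviations of same-numbered libraries correlated across genes at 0.38, and at 0.58 over coding genes. The members at 1 RPKM or more in all 4 libraries were 6, against 11 at 0.5 RPKM, 3 at 2 RPKM and 6 to 11 with 1 library left out.

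Quantile normalization turned Kcnk5 to 0.0763, Cdk5 to 0.0337 and Tomm7 to -0.23. With 1 library left out, differences that changed sign, none of them called, ran from -2.73 to 0.67 (Kcnmb4), -1.79 to 0.43 (Kcnj12), -1.57 to 0.34 (Kcnk1), -0.55 to 0.11 (Kcnj14), -0.83 to 0.44 (Kcnj13), -0.45 to 0.74 (Kcnk2), -1.06 to 1.56 (Kcng3), -0.55 to 0.81 (Kcng4), -0.12 to 0.0950 (Kcnk5), -0.0604 to 0.0473 (Cdk5), -0.31 to 0.0013 (Nupl2), -0.45 to 0.11 (Klhl7), -0.44 to 0.89 (Tomm7) and -0.0960 to 0.21 (Rint1). The causes were not tested. Kcnn4, Kcnab3, Kcns3, Kcnk6, Abcb8 and Fam126a kept their sign in every alternative that gave a value.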
